A study of Mus musculus with 3 samples.

Results

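The large and small Maf transcription factors were followed in sorted cells of the embryonic mouse dorsal root ganglion (DRG), the ganglion that holds the cell bodies of sensory neurons of the trunk. The members are 6 of the 41388 genes counted, taken by gene name and not by any measured value: the large factors Maf, Mafa and Nrl and the small factors Maff, Mafg and Mafk. RNA was sequenced from 3 pooled libraries of C57BL/6 embryos at 12.5 days post coitum with an EGFP reporter for Ret, which encodes the receptor kinase of GDNF family ligands, and EGFP-positive cells were collected by flow cytometry. Library D pooled 60 ganglia of 3 embryos, library B 340 ganglia of 17 embryos (10 male and 7 female) and library C 300 ganglia of 15 embryos, all from lower thoracic to upper sacral levels. The genotype label names a transgene, Tg(Ret-EGFP)SJ, whereas the series text describes a heterozygous EGFP knock-in at Ret, and the sources used here do not settle which holds. No second genotype, treatment or age was sampled, and each library is a pool of animals, so no value belongs to a single embryo. Total counts were 20966139 in D, 18072199 in B and 11666241 in C.

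Maf proteins are basic leucine zipper factors that bind DNA as dimers at Maf recognition elements, which extend a TGCTGA core. Large Maf proteins carry a transactivation domain and drive cell identity programs. Maf and Mafa mark the early Ret-dependent mechanoreceptors of the mouse DRG, the neurons that become low-threshold touch receptors, and Nrl specifies rod photoreceptors in the retina. Small Maf proteins lack a transactivation domain. They act through their partners, activating target genes with the cap'n'collar (CNC) factors such as Nfe2l2 at antioxidant response elements and repressing them with Bach1 and Bach2.

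Mafg and Maf held most of the family's transcript level in these pools, and 4 of the 6 members (Mafg, Maf, Mafa and Maff) reached 1 TPM (transcript abundance scaled for gene length and library size) in every library. Mafk reached 1 TPM in 1 library, D, and Nrl in none. Of all 41388 genes counted, many without a read, 11896 reached 1 TPM in every library. In order of mean level Mafg stood at 30.7 ± 24.2 TPM (SD, n = 3 pools), Maf at 20.4 ± 8.56, Mafa at 5.96 ± 8.21, Maff at 1.82 ± 0.81, Mafk at 1.54 ± 1.02 and Nrl at 0.04 ± 0.03. Mafk over Nrl and Maff over Mafk kept their direction in every library, whereas the order of the other neighbours changed between libraries. In D, however, Maff and Mafk were nearly level, with a log2 TPM ratio of 0.01 on 45 and 82 counts. The log2 TPM ratio within a library was 0.41 ± 0.55 for Mafg over Maf, 2.68 ± 2.61 for Maf over Mafa, 0.72 ± 2.40 for Mafa over Maff and 0.31 ± 0.26 for Maff over Mafk. For Mafk over Nrl it was 3.43 ± 0.79, several SD above 0, and 1.22 with a pseudocount of 1 TPM in place of 0.1, since Nrl had at most 1 count. An exact two-sided sign-flip permutation test with Benjamini-Hochberg adjustment over the 5 neighbour pairs gave 0.625 for all of them except Mafa over Maff, where it gave 1. With 3 libraries this test cannot give an unadjusted p below 0.25.

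**Figure D1:**
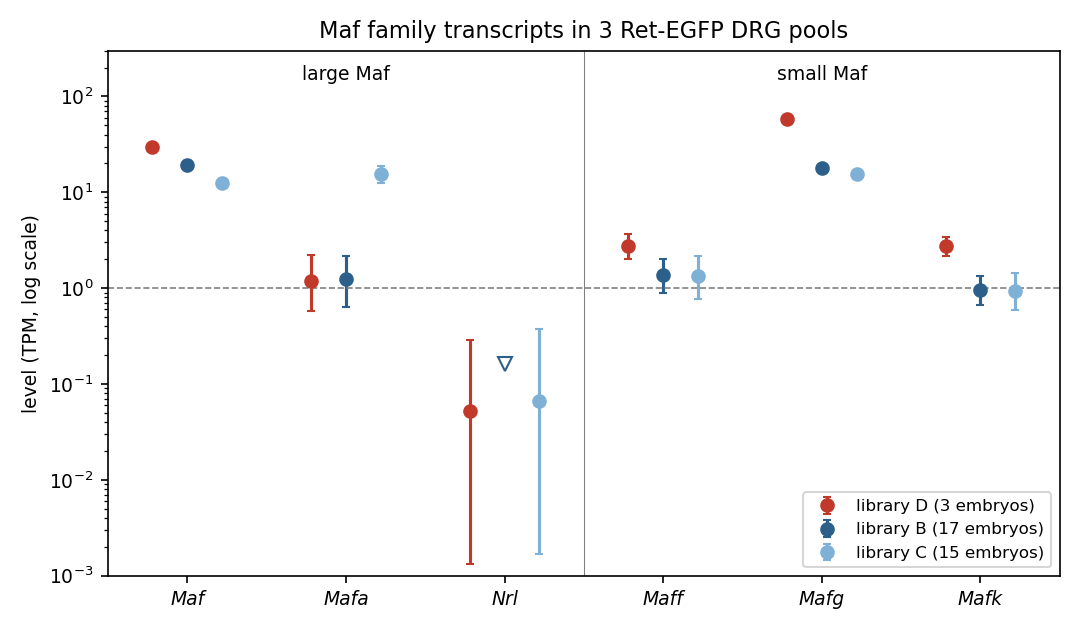
Level of each Maf gene in TPM on a log scale in libraries D (3 embryos), B (17) and C (15), with exact 95% Poisson intervals for counting error; the open triangle is the upper limit where no read was counted, and the dashed line marks 1 TPM. Mafg and Maf stand above 10 TPM in every pool, Mafa does so only in library C, and Nrl lies under 1 TPM in all of them.

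Maf (ENSMUSG00000055435, chromosome 8, 115682942 to 115707794 on the minus strand, GRCm38), which encodes c-Maf, had 1869 counts in D, 1429 in B and 614 in C. These counts gave 29.4 TPM in D, 19.2 TPM in B and 12.4 TPM in C, so Maf was measured in all pools and was highest in D. Among all 41388 genes, many without a read, it ranked above 89.1% in D, 89.9% in B and 87.0% in C. By TPM it held rank 4506 of the 21084 genes with a count in D. The rank was 4199 of 20939 in B and 5372 of 18831 in C. The biological coefficient of variation of Maf over the pools was 0.46, where the median over 13182 genes was 0.49. Of its 8241 counted bases 86.2% lie outside the coding sequence. Some 440 of them overlap the antisense gene Gm15655, which had 0 counts in every library.

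Mafa (ENSMUSG00000047591, chromosome 15, 75746843 to 75747922 on the minus strand) had 10 counts in D, 12 in B and 100 in C. The levels were 1.20 TPM in D (95% Poisson interval 0.58 to 2.21), 1.23 TPM in B (0.64 to 2.15) and 15.4 TPM in C (12.6 to 18.8). The interval of C stood apart from the other two, which overlapped, and these intervals cover counting error only. Mafa made up 33.8% of the summed TPM of the 6 members in C, where Maf made up 27.2% and Mafg 33.9%, against 1.27% in D and 3.02% in B.

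Mafa was the only member counted almost wholly over coding sequence. It is a single block of 1080 bases that holds 1077 coding bases and the 3 bases beside them, while 1659 further exon bases of the GENCODE M21 annotation were not counted. All 8241 M21 exon bases of Maf, 5613 of Mafg and 3901 of Mafk were counted, whereas 478 of Maff and 3185 of Nrl were not. Between 71.6% and 91.3% of the counted bases of the other 5 members were noncoding. Reads from the untranslated parts of Mafa therefore do not enter its count, and its level rests on the coding part, whose GC content was 71.1%.

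**Figure D2:**
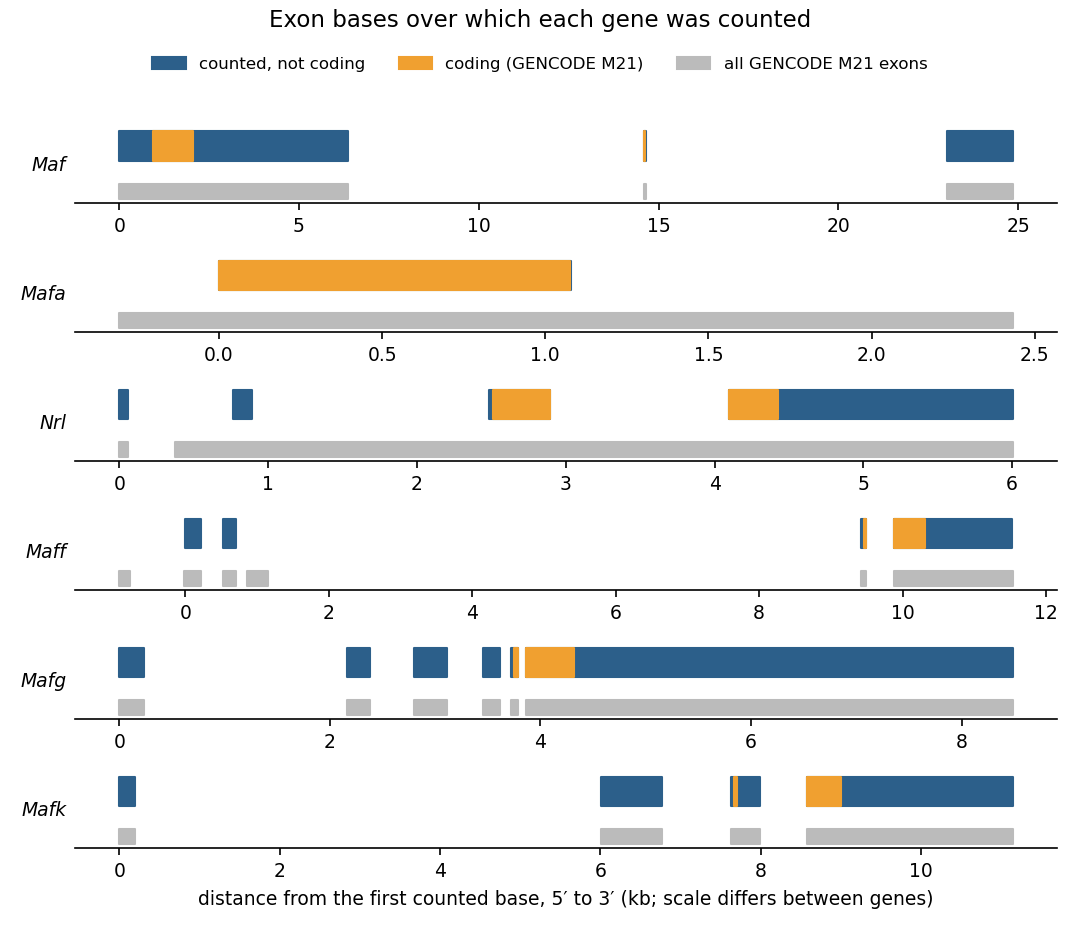
Exon bases over which each Maf gene was counted (blue where not coding, orange where coding) and all GENCODE M21 exons (grey), by distance in kb from the first counted base, 5′ to 3′; each gene has its own scale. Mafa was counted over its coding sequence only (1080 bases), whereas Maf, Mafg and Mafk were counted over all of their M21 exons.

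Library C held more reads of GC-rich transcripts, and Mafa lies far along that axis. Over 15633 genes the median log2 CPM ratio of C over the mean of B and D ran from -0.56 in the decile of genes with the lowest GC to 0.54 in the decile with the highest GC (57.6% to 78.6%). The longest Mafa transcript has 65.0% GC, and its ratio was 3.69, a value reached or passed by 50 of those genes (0.32%) and by 1.66% of the 1564 genes in the top decile. The other 4 members tested had negative ratios in C: -0.28 for Maff, -0.59 for Mafk, -0.68 for Maf and -0.94 for Mafg. The part of GC content in the Mafa value was not tested.

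**Figure D3:**
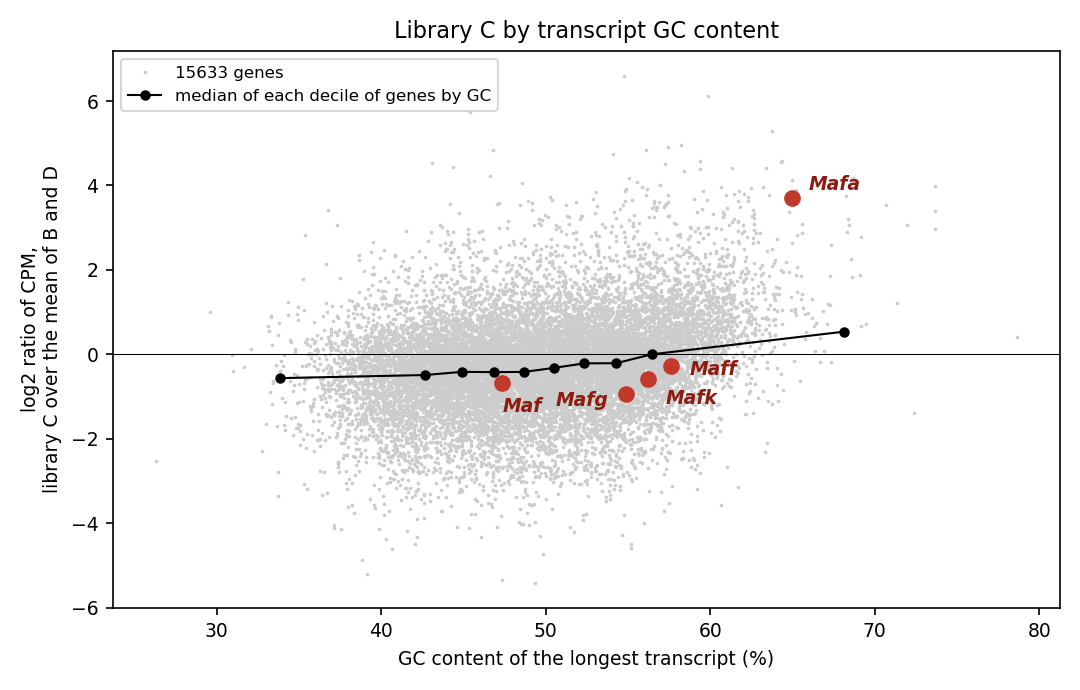
Log2 ratio of CPM in library C over the mean of libraries B and D (y axis) against the GC content of the longest transcript in percent (x axis) for 15633 genes (grey), with the median of each decile of genes by GC (black) and 5 Maf genes (red). Mafa, at 65.0% GC, has a ratio of 3.69, while the other 4 members lie below 0.

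Few genes lay close to the pattern of Mafa over the pools. Likeness was the Euclidean distance of centred log2(TPM + 0.1) over the 3 libraries among 14082 genes with a mean of 1 TPM or more. Maf1, a repressor of RNA polymerase III that is no Maf family member despite its name, lay nearest with a distance of 0.11 and had 2549 counts in C, against 296 in D and 319 in B. Med9, a Mediator subunit gene, followed at 0.11 with 765 counts in C, against 81 in D and 88 in B. Rell2 was the third at 0.15 and shares 1482 of its exon bases with Fchsd1. Within 0.25 of Mafa lay 19 genes, and within 0.25 of Maf 677. This distance is not scaled to the size of a pattern, and Mafa differed far more between pools than Maf. The numbers are therefore not a like comparison of the genes. The place of Mafa also rests on 10 counts in D and 12 in B. Among the nearest to Maf were Cntn6, a neural adhesion gene, and Kcnk10, a potassium channel gene, each at a distance of 0.02. With 3 points a close match carries little information.

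Nrl (ENSMUSG00000040632, chromosome 14, 55518978 to 55524981 on the minus strand) was not detectable at this depth, with 1 count in D, 0 in B and 1 in C. The exact 95% Poisson intervals of its level reach up to 0.29 TPM in D, 0.16 TPM in B and 0.37 TPM in C. Crx, the retinal homeodomain factor that acts with Nrl on rod genes, had 0 counts in every library. From the list of rod photoreceptor genes, Rom1, which encodes a membrane protein of rod outer segments, had 103 counts in D, 311 in B and 229 in C, and Sag, the gene of rod arrestin, stayed at or under 0.15 TPM.

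Mafg (ENSMUSG00000051510, chromosome 11, 120625117 to 120633600 on the minus strand), the most abundant small Maf gene, had 2534 counts in D, 915 in B and 522 in C. Its level was 58.6 TPM in D, 18.1 TPM in B and 15.5 TPM in C, with D well above the other pools. It took 61.8% of the summed TPM of the members in D, 44.2% in B and 33.9% in C. Mafg shares 124 of its 5613 counted bases with Sirt7 on the same strand, and Sirt7 had 290 counts in D, 303 in B and 852 in C, an order opposite to that of Mafg.

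Maff (ENSMUSG00000042622, chromosome 15, 79347541 to 79359072 on the plus strand), a small Maf gene known for induction by stress and cytokines, had 45 counts in D, 26 in B and 17 in C. This gave 2.76 TPM in D (95% Poisson interval 2.01 to 3.69), 1.36 TPM in B (0.89 to 1.99) and 1.34 TPM in C (0.78 to 2.14). Mafk (ENSMUSG00000018143, chromosome 5, 139791513 to 139802653 on the plus strand), a partner of Nfe2 and of the Bach factors, had 82 counts in D, 34 in B and 22 in C. Its level was 2.73 TPM in D (2.17 to 3.39), 0.97 TPM in B (0.67 to 1.35) and 0.94 TPM in C (0.59 to 1.42). Both genes were thus low and highest in D, and their intervals in B and C overlapped. For Maff the interval in D also overlapped that in C, while for Mafk the interval in D lay above both others. These intervals cover counting error only, and TPM stood higher in D for most genes tested (median log2 ratio 0.66). How many other genes have intervals that part in this way was not counted. Mafk shares 169 bases with Tmem184a on the other strand, which had at most 5 counts.

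The promoters of the 3 small Maf genes are shown because Mafg itself is known as a target of the CNC and small Maf dimer. On the TPM scale their order of levels over the pools was also that of Maf, Nfe2l2, Bach1 and Bach2. TPM stood higher in D for most genes tested, and how many other genes have this order was not counted. B and C were nearly level for Mafk (0.97 and 0.94 TPM) and Bach2 (8.41 and 8.19 TPM). Each promoter is the 250 bases before the start site in RefSeq, GRCm38.p6, read 5′ to 3′ on the gene's strand. Capitals mark TGCTGA, TGACNNNGC (the core of the antioxidant response element), TGACTCA (the AP-1 site) or TGACGTCA (the cyclic AMP response element), searched on both strands. The windows are chr11:120633548-120633797 on the minus strand for Mafg, chr5:139791286-139791535 on the plus strand for Mafk and chr15:79347270-79347519 on the plus strand for Maff.
Mafg: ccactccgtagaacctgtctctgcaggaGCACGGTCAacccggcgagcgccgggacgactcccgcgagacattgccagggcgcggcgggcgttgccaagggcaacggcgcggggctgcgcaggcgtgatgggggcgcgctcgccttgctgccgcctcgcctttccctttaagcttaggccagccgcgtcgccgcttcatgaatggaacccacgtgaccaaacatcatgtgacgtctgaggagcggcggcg
Mafk: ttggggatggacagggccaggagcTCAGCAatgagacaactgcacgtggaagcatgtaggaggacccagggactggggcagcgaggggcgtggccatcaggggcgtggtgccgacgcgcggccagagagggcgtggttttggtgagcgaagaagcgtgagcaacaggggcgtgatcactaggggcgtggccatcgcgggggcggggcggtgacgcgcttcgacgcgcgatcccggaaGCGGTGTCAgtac
Maff: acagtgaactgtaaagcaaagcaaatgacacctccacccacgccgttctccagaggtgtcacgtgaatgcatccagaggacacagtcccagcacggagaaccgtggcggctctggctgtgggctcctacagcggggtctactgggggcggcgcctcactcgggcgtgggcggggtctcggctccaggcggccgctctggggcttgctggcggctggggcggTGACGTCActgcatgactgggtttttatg
The Mafg window holds 1 antioxidant element core, whose first letter lies 222 bases before the start. The Mafk window holds 1 such core at 13 bases and 1 TGCTGA core at 226 bases. In the Maff window a cyclic AMP element lies at 29 bases. Among 32851 RefSeq windows of this length 10.2% hold the antioxidant element core, 16.1% TGCTGA, 1.55% the cyclic AMP element and 4.46% the AP-1 site. These shares are over windows of any GC content. The matches are a description of sequence, and whether any of them is a bound site was not tested. The windows had 68.0% GC for Mafg, 67.2% for Mafk and 64.0% for Maff, where the median over all windows was 52.4%. The Nrl window, with 47.2% GC, held none of the motifs, but it lies within the counted gene. Its start site is 729 bases from the first counted base, against 53 for Mafg, 23 for Mafk and 21 for Maff.

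Library D, the pool of fewest embryos, was compared with B and C in a fit over all genes, to ask whether the family's levels set it apart. None of the 5 members tested passed, and among 15727 genes tested 0 (0%) passed edgeR's quasi-likelihood test with Benjamini-Hochberg adjustment at 0.05. At an unadjusted p under 0.05 the fit called 3046 genes (19.4%), of which Mafg was the only member. In DESeq2 none of Mafg, Maf and Mafa passed, while Maff, Mafk and Nrl had no adjusted p and so could not be called. TPM levels stood higher in D for most genes tested: the median log2 ratio of D over the mean of B and C was 0.66 in TPM, 0.22 in CPM and -0.02 in the edgeR fit. Differences below are those of the fit, on the log2 scale. In bulk samples fewer cells of a type and less RNA per cell cannot be told apart.

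All 3 small Maf genes had positive log2 ratios in D. Mafg had the largest, 1.10 ± 0.43 (approximate SE; edgeR adjusted p = 0.246). The ratio was 0.81 ± 0.71 for Mafk (edgeR adjusted p = 0.527) and 0.33 ± 0.80 for Maff (0.832). Of all genes tested 49.5% were higher in D, with a median ratio of -0.02. Long transcripts tended to be higher in D, with a median ratio of -0.74 in the shortest decile of genes and 0.68 in the longest. GC-rich transcripts tended to be lower, with a median of -1.11 in the decile of highest GC and 0.45 in that of lowest GC. With both trends removed the ratios were 0.84 for Mafg, 1.02 for Mafk and 1.33 for Maff (edgeR adjusted p = 0.466, 0.564 and 0.506). All 3 thus stayed positive under every setting run.

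The log2 ratio of Maf in D was small and its sign depended on the setting, and that of Mafa was negative in every setting run. Maf had a ratio of 0.20 ± 0.48 (edgeR adjusted p = 0.825), which was -0.60 with the length and GC trends removed and -0.0092 against library B alone. Mafa had a ratio of -3.49 ± 1.64 (edgeR adjusted p = 0.290). This value rested on library C: it was -0.54 against B alone and -4.05 against C alone, and -0.89 with the length and GC trends removed. Without the filter on low counts edgeR called Mafa (adjusted p = 0.0113) among 1534 of 23553 genes (6.51%). Nrl did not pass the filter.

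The balance of the families followed the same genes. Summed over members, large Maf transcripts stood at 30.7 TPM in D, 20.5 in B and 27.9 in C, and small Maf transcripts at 64.1 TPM in D, 20.4 in B and 17.8 in C. The log2 ratio of large over small was -1.06 in D, 0.00 in B and 0.65 in C. Its mean of -0.14 ± 0.86 (SD, n = 3) could not be told from 0 (exact sign-flip permutation p = 1).

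**Figure D4:**
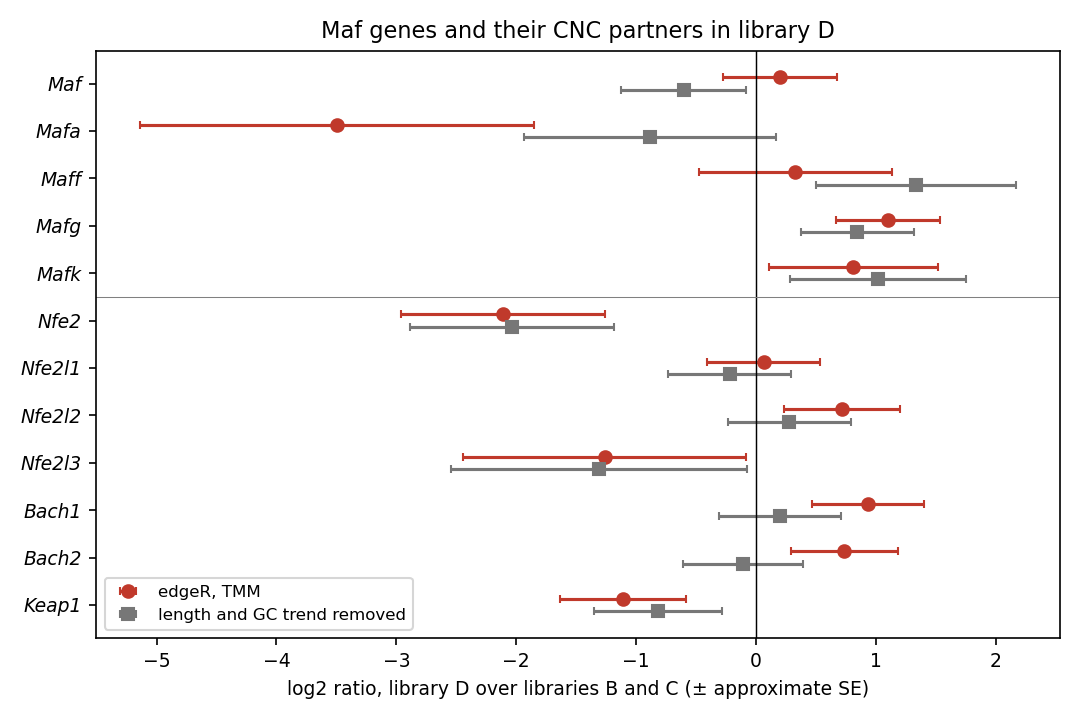
Log2 ratio of library D over libraries B and C (x axis) with its approximate SE for 5 Maf genes and 7 genes of the CNC partner list, from edgeR with TMM (red circles) and after removal of the trend with length and GC (grey squares). Mafg, Mafk and Maff lie to the right of 0 in both fits, Maf, Bach2 and Nfe2l1 change side, and no gene passed the adjusted threshold.

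Small Maf proteins need a partner, and genes for 5 of the 7 members of the CNC list reached 1 TPM in every pool: Nfe2l2, Nfe2l1, Bach1, Bach2 and Keap1, the sensor that holds Nfe2l2 protein low. Nfe2l2 stood at 49.3 TPM in D, 22.4 in B and 14.7 in C, and Nfe2l1, which controls proteasome genes, at 23.8 TPM in D, 13.2 in B and 14.8 in C. The repressor gene Bach2 had 22.5 TPM in D, 8.41 in B and 8.19 in C, and Bach1 had 18.7 TPM in D, 6.62 in B and 5.42 in C. These 4 genes were, like the small Maf genes, highest in D on the TPM scale, on which most genes tested stood higher in D. Keap1 had 13.3 TPM in D, 15.2 in B and 20.0 in C, the opposite order, and Nfe2l3 stayed at or under 0.90 TPM.

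In the fit 4 of these 7 genes were higher in D and 3 lower, none was called, and the median ratio was 0.06, or -0.22 with the length and GC trends removed. Bach1 had a ratio of 0.93 ± 0.47, Bach2 0.74 ± 0.45 and Nfe2l2 0.71 ± 0.48 (edgeR adjusted p = 0.310, 0.380 and 0.426). In that second fit these were 0.20, -0.11 and 0.28, so these positive values shrank and that of Bach2 changed sign. Nfe2l1 had a ratio of 0.06, and -0.22 in the second fit. Keap1 and Nfe2l3 were lower in D, at -1.11 ± 0.53 and -1.26 ± 1.18, and at -0.82 and -1.31 in the second fit. Nfe2, the erythroid and megakaryocyte partner of Mafk and Mafg, had 23 counts in D, 98 in B and 31 in C and a ratio of -2.11 ± 0.85 (edgeR adjusted p = 0.253), and it alone in the list had an unadjusted p under 0.05. The summed level of 7 erythroid markers was 354 TPM in D, 2498 in B and 1263 in C, with 2 of them at 1 TPM or more in every pool and Gata1 at 0 in D. Their part in the Nfe2 value was not tested.

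**Figure D5:**
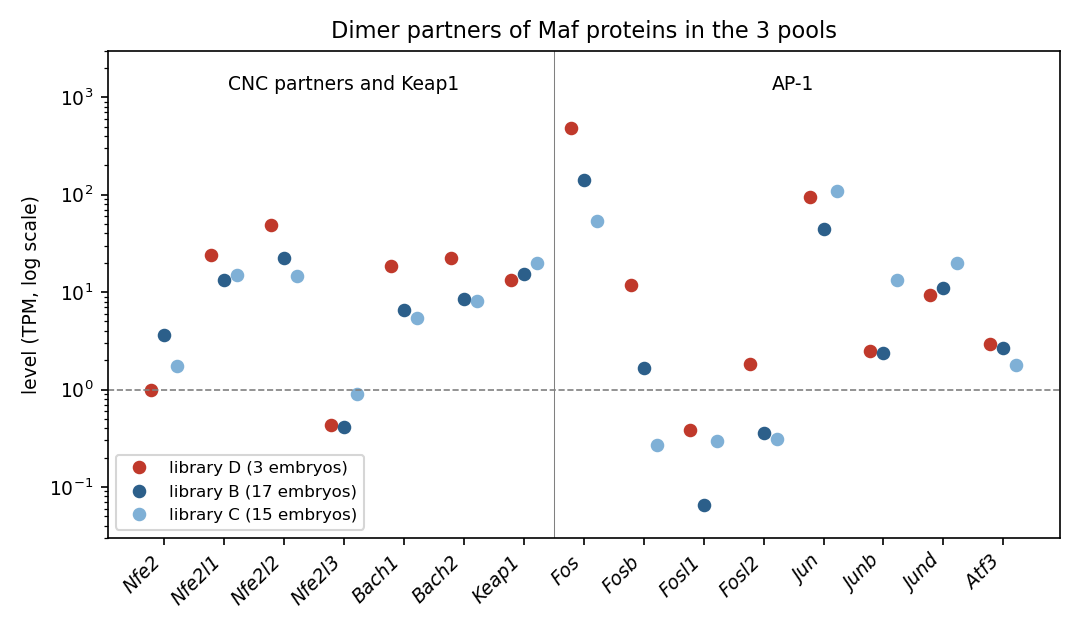
Level in TPM on a log scale of the 7 CNC partner list genes and 8 AP-1 genes in libraries D, B and C; the dashed line marks 1 TPM. Nfe2l2, Nfe2l1, Bach1 and Bach2 are highest in D, whereas Keap1 and Jund are highest in C.

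Genes known to answer to CNC and small Maf dimers were mostly present, without a common shift. Of 14 antioxidant response genes 12 reached 1 TPM in every pool. The highest were Prdx1, a peroxiredoxin gene, at 560 ± 68.4 TPM (SD, n = 3), and the pentose phosphate genes Taldo1 at 461 ± 10.8 TPM and Pgd at 83.5 ± 24.2 TPM. In the fit 6 of 13 tested were higher in D and 7 lower, none was called, and the median ratio was -0.11, or -0.18 with both trends removed. The ratio was -0.44 ± 0.38 for Prdx1, -0.66 ± 0.39 for Taldo1 and -0.12 ± 0.43 for Pgd (edgeR adjusted p = 0.522, 0.375 and 0.883).

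Large Maf proteins can also pair with Fos and Jun proteins, the subunits of AP-1. Fos had 484 TPM in D, 143 in B and 53.3 in C, a ratio of 1.62 ± 0.59 (edgeR adjusted p = 0.234). Jun had 94.8 TPM in D, 44.7 in B and 108 in C, and Jund 9.38 TPM in D, 10.9 in B and 20.0 in C. Of 7 AP-1 genes tested 3 were higher in D and 4 lower with none called. The median was -0.30, and 0.68 with the length and GC trends removed.

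Among 9 genes of early Ret and touch neurons, the cells that Maf and Mafa mark, 8 reached 1 TPM in every pool. Gfra2, the co-receptor for neurturin, had 271 TPM in D, 108 in B and 71.1 in C. Shox2, a homeodomain factor of these neurons, had 153 TPM in D, 72.7 in B and 110 in C, and Gfra1, the GDNF co-receptor, had 111 TPM in D, 24.7 in B and 34.3 in C. Shox2 shares 153 exon bases with Rsrc1 on the other strand. In the fit 6 were higher in D and 3 lower, none was called, and the median ratio was 0.13, or -0.14 with both trends removed. The ratios were 0.90 ± 0.43 for Gfra2, 0.02 ± 0.48 for Shox2 and 1.20 ± 0.45 for Gfra1 (edgeR adjusted p = 0.295, 0.982 and 0.240).

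The pools were labelled as DRG neurons, and all 6 neuron markers were above 1 TPM in each. Their summed level was 17576 TPM in D, 29160 in B and 20831 in C. Tubb3 (9265 TPM in D, 17901 in B, 9716 in C) and Stmn2 (6165, 9309 and 8844 TPM) gave most of these sums. The list's median was 657 TPM in D, 701 in B and 973 in C. In the fit 5 neuron markers were lower in D and 1, Pou4f1, was higher (1.36 ± 0.44), with none called. The ratio of Tubb3 was -1.26, or -0.18 with both trends removed, and that of Stmn2 was -1.26 in both fits. All 6 glia markers were above 1 TPM too, with a sum of 2614 TPM in D, 2665 in B and 1246 in C, and their median level was 139 TPM in D, 49.1 in B and 37.5 in C. Macrophages also express Maf, and 4 of 8 macrophage markers reached 1 TPM in every pool, with sums of 29.5 TPM in D, 38.1 in B and 35.2 in C. C1qb gave most of these sums (16.6 TPM in D, 27.3 in B and 25.1 in C), while 7 of the 8 reached 1 TPM in D and 4 each in B and C, and the median was 1.89 TPM in D, 1.05 in B and 1.59 in C. Adgre1, which encodes the macrophage protein F4/80, had 1.80 TPM in D, 0.41 in B and 0.21 in C, so these markers did not move together. Their part in the Maf value was not tested. The sum of 5 mesenchyme markers (2 at 1 TPM or more in every pool) was 55.9 TPM in D, 15.8 in B and 11.8 in C, of which Col1a2 alone gave 53.0 TPM in D, 11.2 in B and 8.42 in C. The median of the list was lowest in D, with 0.48 TPM in D, 1.03 in B and 0.72 in C. The sum of 4 cartilage markers was 20.3 TPM in D, 9.44 in B and 7.67 in C, with Acan and Matn1 at 0. The 6 endothelium markers summed to 4.74 TPM in D, 7.86 in B and 3.38 in C. The 6 spinal cord markers stayed at or under 0.38 TPM in sum, with Lbx1 and Olig2 at 0. The part of glia and mesenchyme in the small Maf values was not tested.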

How the data were processed

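RNA from sorted cells was reverse transcribed and amplified by a low-input method without strand information, per the labels' protocols. The authors deposited 1 table for each library, which holds read counts, CPM (counts scaled to the file total) and RPKM (that CPM per kilobase of counted exons) for 41388 Ensembl genes, of which 40254 had a symbol. Subread, featureCounts 1.4.5 and the build GRCm38.p2 appear, without roles, in the submitters' processing notes; annotation release and strand setting were not given in the sources used here.

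TPM was computed from the deposited counts and lengths. Counts were tested with edgeR 4.0.16 (quasi-likelihood, TMM, filterByExpr, Benjamini-Hochberg over all genes tested), library D against B and C. This fit has 1 residual degree of freedom, so D is taken to vary as B and C do, and its standard errors are approximate, from the ratio and its F statistic. P-values measure only the spread between these pools. Within-library ratios used log2(TPM + 0.1) and an exact two-sided sign-flip permutation test. Alternatives were DESeq2 1.42.0, its size factors, no filter, CPM, other pseudocounts and detection limits, each library left out, and length or length and GC trends removed as offsets (mgcv 1.9.3), the trend with GC chosen after seeing the data. Transcript GC is that of the longest GENCODE M21 isoform.

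The members and lists were chosen with earlier results of these data known. Named genes were all members, all genes of the CNC list, the 3 of highest mean TPM of each other list and the 3 most like Maf and Mafa; a few genes that this rule names are not reported here. Promoters came from RefSeq for the 4 members with an entry. No pair of libraries agreed within counting error (chi-square per degree of freedom 133 to 318), which says only that none was the same library deposited again.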

Additional observations from a re-analysis of the deposited data

How the results depend on the processing

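Of 80 alternative values 63 stayed the same by the rule for their kind. Ratios within a library had to keep their direction. Counts had to stay within 1.5 times the main count (5 members were detected in every library at 0.5 TPM, against 4 at 1 TPM). Ratios in D had to keep their direction and gain no call. With B or C left out they had to keep their direction and stay within the SE of the main ratio. CPM in place of TPM, which leaves out gene length, turned the log2 ratio of large over small Maf to 0.14, Mafg over Maf to -0.15, Mafa over Maff to -0.16 and Maff over Mafk to -0.52. Leaving out each library in turn, large over small ran from -0.53 (without C) to 0.33 (without D) and Mafa over Maff from -0.63 (without C) to 1.65 (without D). At 5 TPM 2 members were detected in every library. While edgeR with TMM called 0 genes in D, it called 8 under size factors from DESeq2 and 6 with the length trend removed; DESeq2 itself called 690 (adjusted p missing for 11838 of 23553 genes), and edgeR with no filter 1534, where 1 member, Mafa, was called (-3.44, edgeR adjusted p = 0.0113; DESeq2 adjusted p = 0.0884). The cause was not tested. The ratio of Maf in D was -0.47 with the length trend removed, -0.60 with the length and GC trend removed, and -0.0092 to 0.56 with B or C left out. Mafg, Mafk and Maff kept a positive ratio in every alternative, 0.60 to 1.23, 0.56 to 1.02 and 0.28 to 1.33. Depth limits Nrl, Maff, Mafk and Mafa in B and D, which rest on fewer than 100 counts.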
